A study of Mus musculus with 6 samples.

Results

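The genes described here encode the proteins of the cytosolic ribosome. They were chosen by symbol alone, as every row of the colonic crypt expression table named Rpl or Rps with a number and at most 1 closing letter out of a, l, x and y, together with Rplp0, Rplp1, Rplp2 and Rpsa. The rule found 80 of the 18049 rows of the table, 32 of the small subunit and 48 of the large subunit. All 80 passed the filter on low values (at least 0.1 in at least 3 of 6 mice), as did 16670 rows in all. The symbol rule also brought in 3 rows at very low signal. Rpl6l and Rpl32l are annotated as processed pseudogenes, and Rps4l is a single-exon relative of Rps4x, so counts are also given for the 77 members without them. Ribosomal proteins with other kinds of symbol (such as Fau, Rack1 and Rps3a1) fell outside the rule and are described with the related gene lists.

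A ribosome holds 1 copy of nearly every one of these proteins, and cells make them in matched amounts. The small subunit reads the mRNA, the large subunit joins amino acids, and the acidic P stalk of the large subunit recruits elongation factors. Ribosomal protein mRNAs are among the most abundant of any cell. Many begin with a cytosine followed by a run of pyrimidines (the 5′ terminal oligopyrimidine, or TOP, sequence), through which their translation follows mTOR signaling. Dividing cells of the crypt base are major consumers of new ribosomes in the intestine.

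RNA was measured in whole colonic crypts of 6 mice of a model of Lynch syndrome on the C57BL/6J background. In all 6, Villin-Cre acted on a floxed allele in the intestinal epithelium, a humanized TgfbRII allele with a poly(A) repeat was knocked in, and a Western-style diet was fed. The 3 GSK503 mice received the EZH2 inhibitor GSK503 by tail vein at 200 µg/kg body weight in PBS, and the 3 Control mice received 20% captisol in PBS. Ages at collection are not given in the labels. EZH2 places the repressive mark H3K27me3, and the comparison asks how crypt expression differed after its inhibition.

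Each library held an estimated 108162903 to 135085089 fragments assigned to genes. Values are estimated counts scaled to a common library size as CPM with TMM (a scaling that assumes most genes do not differ), called signal below. The groups differed in more than treatment. Xist lay at 825 or above in every GSK503 mouse and at 0.936 or below in every Control mouse, and 4 of 4 Y-linked genes were lower in GSK503, so sex and treatment cannot be told apart. Goblet cell markers were higher in 6 of 6 cases, 3 of them past the limma test at 0.05, and their summed signal was 10122 to 18316 in Control against 31336 to 49874 in GSK503. B cell markers were lower on average in 6 of 6 cases, with summed signal of 22.0 to 74.99 in Control and 1.95 to 61.4 in GSK503. Smooth muscle markers stood at a summed 98.7 to 179 in Control, 73.6 and 81.2 in GSK503 1 and 2, and 210 in GSK503 3. Macrophage, fibroblast, endothelial and red blood cell markers had negative medians (-0.49, -0.67, -1.03 and -1.09), T cell markers were at -0.19, dividing cell markers at -0.04 and epithelial markers at 0.09 (log2 fold change). The part of any of these in the results below was not tested. For the ribosomal protein genes, 1 library stood apart from the other 5. Control 3 was the lowest mouse for 76 of 80 members, and fold changes of the members described singly are given with and without it.

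Start sequences are shown because the TOP sequence is the feature by which these mRNAs are known. RefSeq's promoter table (mouse build GRCm38.p6, 250 bases before to 50 after each start) held 58 of the 80 members. A cytosine at the annotated start followed by at least 4 pyrimidines was present in 14 of the 58 (24.1%), against 813 of all 27025 genes with a promoter (3.01%). The 14 include the pseudogene row Rpl32l. The annotated start is a single position per gene, so a TOP sequence that begins a few bases away was not counted. Each of the following stretches runs 5′ to 3′ on the gene's own strand over 40 bases, 25 of them before the start, and capitals mark the unbroken pyrimidine run that begins at the start.
Rps6, chr4:86857353-86857392, minus strand: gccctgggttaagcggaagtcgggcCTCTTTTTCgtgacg
Rps10, chr17:27635230-27635269, minus strand: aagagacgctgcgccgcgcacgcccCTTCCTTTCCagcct
Rps27, chr3:90213634-90213673, minus strand: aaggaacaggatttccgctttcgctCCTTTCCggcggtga
Rpl15, chr14:18270972-18271011, minus strand: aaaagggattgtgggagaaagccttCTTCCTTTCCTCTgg
Rpl28, chr7:4792940-4792979, plus strand: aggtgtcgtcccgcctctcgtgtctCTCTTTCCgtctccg
Rpl35, chr2:39005117-39005156, minus strand: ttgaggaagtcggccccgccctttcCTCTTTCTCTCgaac
Rpl38, chr11:114668555-114668594, plus strand: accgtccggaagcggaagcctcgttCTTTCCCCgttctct
Rplp2, chr7:141447626-141447665, plus strand: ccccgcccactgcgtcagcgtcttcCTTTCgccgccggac

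Over the whole promoter stretch and on both strands, CTCTTT was present in 46.6% of the 58 members and 25.6% of all genes, CTTTCC in 51.7% and 29.3%, and CGGAAG in 69.0% and 18.8%. CTCTTT and CTTTCC overlap in the run CTCTTTCC, seen above in Rpl28, and CGGAAG, the core letters bound by ETS and GABP factors, lies ahead of the start in the stretches of Rps6 and Rpl38. These matches are descriptions of the letters. The log2 fold changes of the 8 members shown ran from -0.03 for Rps6 to 0.12 for Rps10, and none passed the test.

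Ribosomal protein genes supplied 3.46% to 4.30% of each library. The 77 members without the 3 low rows ranged in mean signal over all 6 mice from 58.5 (Rps27l) to 1939 (Rpsa), with a median of 430. Rpl6l, Rps4l and Rpl32l stood far below at 1.17, 1.94 and 2.68. Rpsa, a small subunit protein also known as the laminin receptor, was the most abundant by signal, followed by Rplp0 (1710), which anchors the P stalk, and Rpl4 (1198), a core large subunit protein that lines the exit tunnel. Levels per kilobase of annotated coding sequence allow only a rough comparison between genes. Reads also come from the untranslated parts of an mRNA, which the coding length leaves out. The canonical transcript has 1998 bases and the coding sequence 351 for Rpl34, against 523 and 252 for Rps27. On the per-kilobase scale Rplp1, a P stalk protein, was highest at 3110 ± 417 in Control and 3553 ± 62.3 in GSK503 (SD, n = 3 each). Rpl41, with the shortest coding length of the members (138 bases in the annotation), came next at 3099 ± 348 and 3464 ± 249, which does not differ from Rplp1 beyond this spread. Rps12 followed at 2517 ± 324 and 2562 ± 54.1. Of the 77, Rps18, Rpl27 and Rps27l were lowest per kilobase, at 221 ± 27.8, 211 ± 31.8 and 222 ± 33.1 in Control, and these neighbours did not differ beyond their spread. Pseudogene rows of Rps18 and Rpl27 also held signal, as described below. Whether that signal came from reads of these genes was not tested.

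No ribosomal protein gene passed the test between GSK503 and Control. By limma on log2(signal + 0.1), with Benjamini-Hochberg adjustment over all 16670 rows, 0 of 80 members were called at an adjusted p of 0.05, where 0.642% of all rows were called, and 0 at 0.1, where 1.97% were. No member reached an unadjusted p of 0.05, although 13.3% of all rows did. The limma-voom fit on estimated counts also called 0, with a smallest adjusted p of 0.432. The median log2 fold change was 0.02 over the members, 0.02 over either subunit taken alone and -0.01 over all rows, with 49 members higher and 31 lower. Among the 77, the fold changes lay between -0.18 (Rps27a) and 0.20 (Rplp1) on the log2 scale. The 95% confidence interval of 76 of the 80 stayed within 0.5 log2 units of no difference, so a larger change of these genes lay outside their intervals. The median interval ran from -0.23 to 0.26, and differences smaller than that were not detectable with 3 mice per group. These intervals are not adjusted over the rows, so a call needs a larger difference. Mrpl12, a mitochondrial ribosomal protein gene given below, was not called at 0.05 with a log2 fold change of 0.42 (SE 0.10).

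The groups overlapped for 78 of the 80 members. Rplp1 and Rps10 were higher in every GSK503 mouse than in every Control mouse, which is 2.5% of the members, against 9.84% of all rows for higher values. No member was lower in every GSK503 mouse, against 9.22% of all rows. Rps10, of the small subunit, had signals of 489, 494 and 419 in Control and 518, 494 and 507 in GSK503. Its lowest GSK503 and highest Control values were nearly equal (494.4 and 494.3), and its log2 fold change was 0.12 (SE 0.09, limma adjusted p = 0.604), or 0.04 without Control 3.

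**Figure D1:**
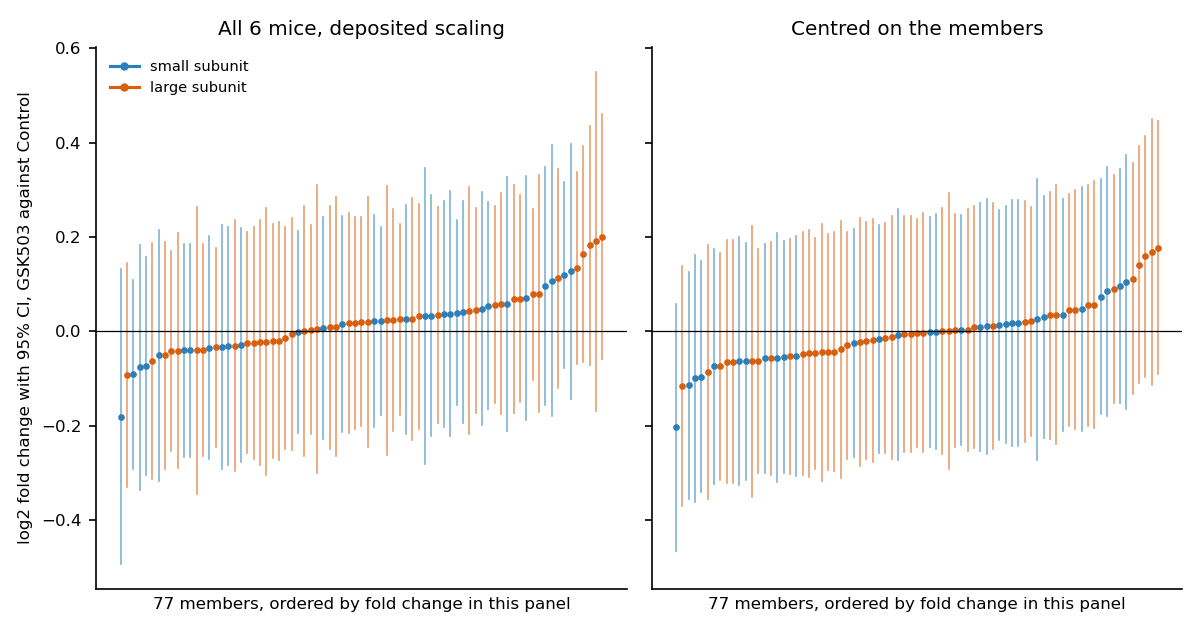
Log2 fold change of GSK503 against Control (y axis) for 77 ribosomal protein genes, with 95% confidence intervals from limma; blue marks the small subunit and orange the large. In the left panel, with the deposited scaling, and in the right panel, after each mouse was centred on its mean over the members, the points lie between about -0.20 and 0.20 and every interval includes 0. The intervals of the right panel draw on the variance of all rows after that shift and do not measure the members' own centred spread.

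The summed signal of the 80 members also overlapped between the groups. It was 42109, 42049 and 33795 in Control 1 to 3 and 39933, 40077 and 38987 in GSK503 1 to 3. Control 1 and 2 lay above all GSK503 mice and Control 3 below all of them. The means were 39318 ± 4783 and 39666 ± 592 (SD, n = 3), a log2 difference of 0.02 (exact two-sided permutation test, p = 1; 3 mice against 3 cannot give a p below 0.1). As a share of the library, the sums were 4.29%, 4.30% and 3.46% in Control and 3.74%, 3.72% and 3.76% in GSK503. With scaling by library size alone, the log2 difference was -0.09 (exact permutation p = 0.4), and under the deposited scaling the values of every GSK503 library sum to more than those of any Control library. That scaling moved the median of all rows to -0.12 and the median of the members to -0.09, with 72 of the 80 members then lower, 0 called and 1 at an unadjusted p below 0.05, against 20.5% of all rows. In bulk crypts, fewer cells with abundant ribosomes and less ribosomal protein mRNA per cell cannot be told apart.

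**Figure D2:**
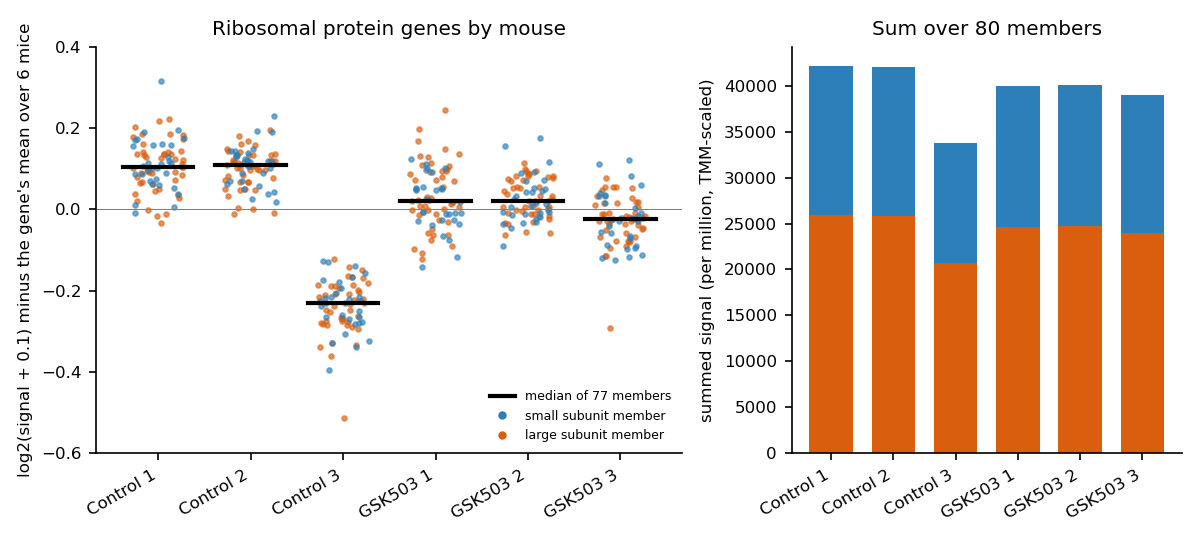
Left, log2 signal of each of 77 ribosomal protein genes minus the gene's own mean (y axis) in each of 6 mice, with black bars for the median; right, summed signal of all 80 members per mouse, large subunit in orange and small in blue. The median deviation was 0.11 in both Control 1 and Control 2, -0.23 in Control 3 and between -0.02 and 0.02 in the GSK503 mice.

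Control 3 carried less of nearly every ribosomal protein mRNA. It was the lowest of the 6 mice for 76 of 80 members, while it was the lowest for 19.1% of all rows and for 25.6% of the 3472 other rows at signals as high as those of the 77 members. The 4 exceptions were Rpl24, for which GSK503 3 was lowest, and the rows Rpl6l, Rpl32l and Rps4l. Over the 77, Control 3 lay a median 17.6% below the mean of the other 5 mice, from 9.67% for Rplp0 to 34.9% for Rpl36. Its log2 offset had a median of -0.28 over the members and 0.02 over all rows. The offset was smaller for members with long coding sequences and for members of high signal, and had no such relation to GC content. Its Spearman correlation across the 77 genes was 0.54 with coding length, 0.43 with mean signal and 0.04 with GC content. The genes share the library and are not independent. The 9 other ribosomal protein genes outside the rule were lowest in Control 3 in 9 of 9 cases, the translation factors in 20 of 36, the mitochondrial ribosomal proteins in 39 of 79 and the ribosome assembly factors in 11 of 35. The goblet cell sum of this mouse, 10900, lay within the range of the other Control mice and its dividing cell sum, 1455, was the highest of the 6. Whether these values bear on the offset was not tested.

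Without Control 3 the members leaned the other way. Control 3 was set apart because it was the lowest mouse for 76 of 80 members. Leaving it out therefore had to lower the fold changes of the 77 and of the summed signal. The counts set against all rows below follow in part from that choice and are no test of the members. The median log2 fold change of 3 GSK503 mice against Control 1 and 2 was -0.09 and 72 of 80 members were lower, while the median of all rows was -0.00081. No member was called (smallest limma adjusted p = 0.114, Rps27a), and 14 members had an unadjusted p below 0.05, all lower, where 4.93% of all rows did so in that direction and 11.3% in either. Among the 14 were Rps4x, Rps15a, Rps19, Rps23, Rps27, Rps27a, Rpl5, Rpl22, Rpl35a, Rpl36a, Rpl37a and Rpl39, named here after their values were seen. The summed signal then differed by -0.09 on the log2 scale with every GSK503 mouse below both Control mice (exact permutation p = 0.1, the smallest that 2 mice against 3 allow). Leaving out Control 1 or Control 2 in turn raised the median to 0.07 in either case, with 74 and 69 members higher. The direction of the members as a group thus depended on which Control mouse was in the comparison.

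**Figure D3:**
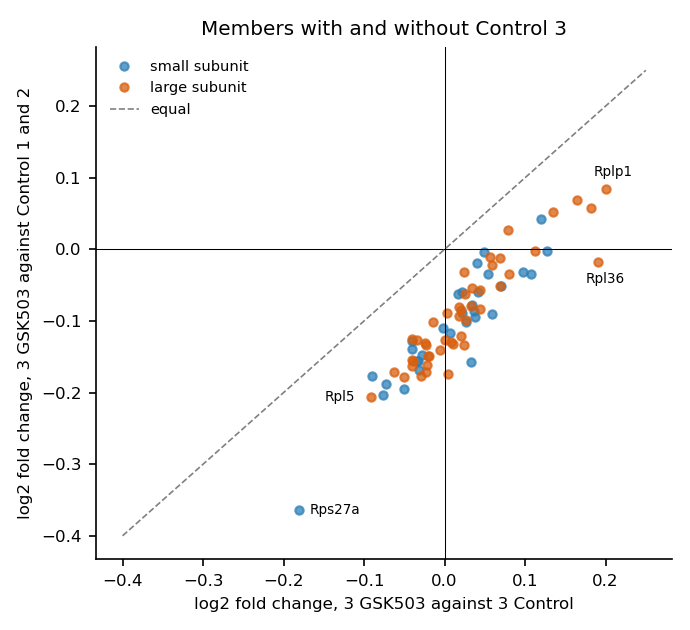
Log2 fold change of each of 77 ribosomal protein genes in all 6 mice (x axis) against the same without Control 3 (y axis); the dashed line marks equal values, and both axes share the 3 GSK503 and 2 of the Control mice. All 77 points lie below the line, as they must when the lowest Control mouse is left out. Most of those to the right of 0 on the x axis lie below 0 on the y axis.

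Most of the spread among the mice was common to all members. The median residual SD within groups was 0.15 on the log2 scale and fell to 0.06 once each mouse was centred on its mean over the members, which is below the 0.10 of other rows at like signal, though these were not centred on their own kind. After centring, 69 of 80 members differed between groups by less than 0.1 log2 units, and the smallest limma p was 0.117 (adjusted p = 0.804). The centred fit shifted every row by the members' mean, and its limma errors draw on the variance of all those rows. Rplp1, for example, had a centred residual SD of 0.025 but an SE of 0.12. The centred p-values therefore do not measure the members' own centred spread and cannot show that no member differed from the rest. The centred groups did not overlap for 12 members (15%), which is near the 12.9% of all rows centred in the same way. Without centring, 19.1% of all rows did not overlap, so the genes named next are a description only. Rpl35, Rpl41, Rplp1 and Rps10 were the 4 with higher centred values, and Rpl3, Rpl5, Rpl22, Rpl36a, Rps19 and Rps24 were among the 8 with lower ones.

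Small and large subunit genes kept a nearly fixed ratio. The summed small subunit signal was 0.625, 0.627 and 0.630 of the large subunit signal in Control 1 to 3 and 0.622, 0.621 and 0.624 in GSK503 1 to 3. All 3 GSK503 ratios lay below all 3 Control ratios, with means of 0.627 ± 0.0023 and 0.622 ± 0.0013 (SD, n = 3) and a log2 difference of -0.01 (exact two-sided permutation p = 0.1, the smallest possible). The order held without the X-linked members and with medians of log2 values in place of sums (exact permutation p = 0.1 in both). It did not hold once the signal of pseudogene rows was added to their parent genes (exact permutation p = 0.3).

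Rpsa and Rplp0 had the highest signals, and Control 3 lay less far below the other mice for them (log2 offsets -0.15 for both) than for the acidic stalk proteins Rplp1 and Rplp2 (-0.40 and -0.35). Rplp0 had signals of 1755, 1768 and 1570 in Control and 1693, 1748 and 1730 in GSK503 (log2 fold change 0.02, SE 0.10; -0.03 without Control 3). Rplp2, its acidic partner, had 521, 543 and 396 in Control and 491, 504 and 472 in GSK503 (0.02, SE 0.12; -0.12 without Control 3). Rplp1, the other acidic partner (chr9:61820557-61821872, minus strand, GRCm39), had 1132, 1159 and 900 in Control and 1238, 1210 and 1196 in GSK503. Every GSK503 value of Rplp1 lay above every Control value, with the smallest p of the members (log2 fold change 0.20, SE 0.12, limma adjusted p = 0.5). Without Control 3 its fold change was 0.08. Rpsa had 1944, 2007 and 1772 in Control and 2004, 2010 and 1899 in GSK503 (0.05, SE 0.11; -0.0037 without Control 3), and the groups overlapped.

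The members with the next largest positive fold changes were all of the large subunit. Rpl36 had signals of 276, 279 and 180 in Control and 304, 273 and 248 in GSK503, and its fold change of 0.19 (SE 0.16) became -0.02 without Control 3. Rpl41, the smallest ribosomal protein, had 462, 448 and 373 in Control and 506, 488 and 440 in GSK503 (0.16, SE 0.10; 0.07 without Control 3). Rpl34 had 210, 219 and 181 in Control and 235, 224 and 208 in GSK503 (0.13, SE 0.09; 0.05 without Control 3), and Rpl27 is given with its pseudogenes below. The limma adjusted p of these 4 genes was between 0.531 and 0.652, and Control and GSK503 values overlapped for each. Rpl32l had the largest fold change of all 80 (0.53, SE 0.39; 0.66 without Control 3), at signals of only 1.19 to 2.88 in Control and 1.87 to 4.51 in GSK503.

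Rps27a, which is made as a fusion of ubiquitin and a small subunit protein, had the most negative fold change. Its signal (chr11:29494748-29498109, minus strand, GRCm39) was 319, 301 and 211 in Control and 232, 255 and 235 in GSK503. Control 1 and 2 were the highest of the 6 mice and Control 3 the lowest, so the groups overlapped (log2 fold change -0.18, SE 0.14, limma adjusted p = 0.621). Without Control 3 the fold change was -0.36 (limma adjusted p = 0.114).

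Members with known roles beyond the ribosome did not pass the test either. Rpl5 and Rpl11 bind Mdm2 together with 5S rRNA when ribosome assembly fails. Rpl5 had signals of 540, 523 and 419 in Control and 437, 465 and 481 in GSK503 (log2 fold change -0.09, SE 0.11; -0.21 without Control 3), and Rpl11 had 740, 767 and 627 against 765, 734 and 680 (0.03, SE 0.10; -0.05 without it). Rps19, the gene most often mutated in Diamond-Blackfan anaemia, had 306, 288 and 248 in Control and 269, 265 and 254 in GSK503 (-0.09, SE 0.09; -0.18 without Control 3). Rps6, the substrate of S6 kinase, had 902, 876 and 687 against 766, 836 and 792 (-0.03, SE 0.12; -0.16 without Control 3). None of the 4 was called without Control 3 either (limma adjusted p from 0.345 to 0.858). For all 4 the lowest value belonged to Control 3 and the groups overlapped. Rpl22, Rpl13a and Rpl38, known for roles in leukaemia, interferon-dependent translation and axial patterning, had fold changes of -0.04, 0.01 and 0.02, and Rpl4 of -0.01, each with a limma adjusted p of 0.909 or more. Without Control 3 these became -0.16, -0.13, -0.09 and -0.10.

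Since the groups differed in sex, the 4 X-linked members were read separately. Rps4x, Rpl10, Rpl36a and Rpl39 had log2 fold changes of -0.08, -0.02, -0.05 and -0.02, so 4 of 4 were lower in the GSK503 mice, whose libraries held Xist (limma adjusted p from 0.829 to 0.957). Without Control 3 they were -0.20, -0.13, -0.18 and -0.17. Rps4x had 728, 702 and 548 in Control and 588, 624 and 651 in GSK503. Rpl10, which joins the large subunit late in its assembly, had 594, 586 and 472 in Control and 508, 546 and 563 in GSK503. In both genes all GSK503 values lay between Control 3 and the other Control mice.

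Fold changes of the members varied with the GC content of their coding sequences. Across the 77 genes the Spearman correlation of the centred log2 fold change with GC was 0.57, against 0.19 for the log2 fold change over the 14741 rows tested that have a coding sequence. The genes share their libraries and are not independent. Of the 20 members of lowest GC (44.9% to 49.7%) 7 were higher in GSK503, with a median log2 fold change of -0.03, and of the 20 of highest GC (55.9% to 61.6%) 18 were, with a median of 0.05. Within single mice, the correlation of a member's centred value with GC was -0.52 and -0.39 in Control 1 and 2, 0.04 in Control 3, 0.54 and 0.41 in GSK503 1 and 2 and -0.19 in GSK503 3. The sign therefore differed within GSK503, and among the Control mice the correlation was negative in Control 1 and 2 and near 0 in Control 3. Without Control 3 the correlation with the fold change was 0.62. Rplp1 (58.2% GC) and Rps27a (45.9% GC), the ends of the range of fold changes, lay toward the ends of the GC range. The correlation of the centred fold change with coding length was -0.29, and with mean signal -0.02. The 29 members that host 57 small nucleolar RNA genes in their introns had a median centred fold change of -0.0046.

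**Figure D4:**
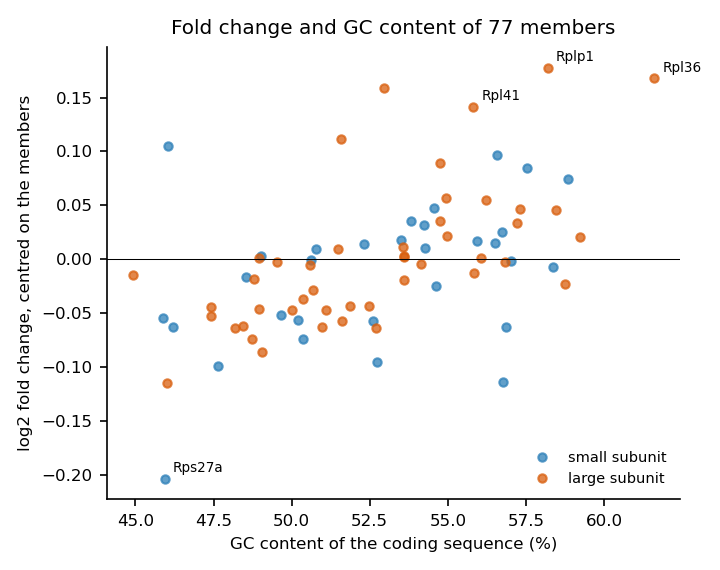
GC content of the coding sequence in percent (x axis) against the log2 fold change of GSK503 against Control centred on the members (y axis) for 77 ribosomal protein genes, small subunit in blue and large in orange. Points rise from left to right, with Rps27a lowest at 45.9% GC and Rplp1 highest at 58.2%.

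Ribosomal protein paralogs were compared with their canonical genes within each library, where scaling cancels. Rps27l, a p53-responsive relative of Rps27, stood at 0.227, 0.223 and 0.255 of Rps27 in Control and 0.267, 0.266 and 0.221 in GSK503 (exact permutation p = 0.4). Rpl22l1 stood at 0.119, 0.106 and 0.104 of Rpl22 in Control and 0.108, 0.117 and 0.0911 in GSK503 (exact permutation p = 0.8). Rpl36al, a copy of the X-linked Rpl36a on an autosome, stood at 0.862, 0.776 and 0.831 in Control and 0.944, 0.989 and 0.850 in GSK503, a log2 difference of 0.17 (exact permutation p = 0.2). Only GSK503 3 overlapped the Control mice. Rpl7l1 to Rpl7 (0.0645 to 0.0882 in Control and 0.0742 to 0.0831 in GSK503, exact permutation p = 0.6) and Rps4l to Rps4x (p = 1) did not separate the groups, and Rps4l itself ranged from 0.558 to 4.48 within GSK503. The canonical transcripts of these 5 pairs share no exact stretch of 76 bases, the read length. Over the 5 pairs compared, every Benjamini-Hochberg adjusted value of the exact permutation tests was 1.

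Some members may share reads with processed pseudogenes, which carry near copies of their mRNAs. The table held 74 rows named as pseudogenes of 34 members, and together they took 5.04% of the joint signal. For 8 members they took over 10%. The share was 78.2% for Rps18, 60.1% for Rps2, 41.3% for Rpl3, 39.8% for Rpl27, 38.5% for Rps7, 33.5% for Rpl34, 13.0% for Rps6 and 10.5% for Rps23. All 76-base stretches of Rps6-ps4, Rpl27-ps3 and Rps23-ps1 recur exactly in the canonical transcript of the parent gene, as do 88.2% of those of Rpl3-ps1, 75.7% of Rps7-ps3, 63.1% of Rps2-ps10, 59.5% of Rpl34-ps1 and 46.9% of Rps18-ps6. Levels of these parent genes are therefore uncertain. Only rows named as pseudogenes were counted here, which leaves out Rpl37rt, a row named after Rpl37. It had 186, 184 and 150 in Control and 188, 173 and 174 in GSK503. Rpl37 itself had 368, 365 and 297 in Control and 371, 341 and 345 in GSK503. Whether these 2 rows share reads was not tested, so the level of Rpl37 is uncertain too. Rpl27 had signals of 88.9, 97.4 and 71.9 in Control and 104, 97.1 and 89.8 in GSK503, and its fold change was 0.06 without Control 3. Its pseudogene rows had 87.5, 44.2 and 79.6 in Control and 71.8, 45.6 and 34.3 in GSK503. The log2 fold change of Rpl27 in all 6 mice, 0.18, became -0.09 when the rows were added to it (limma adjusted p = 0.808). For Rps18 and Rps2 the fold changes stayed near 0 either way (-0.0018 and 0.02 alone, -0.0072 and -0.01 with the rows added).

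The other genes of ribosome production and translation were read from fixed lists, counted over the same fit. The 9 ribosomal protein rows outside the rule, Rpl37rt and Rps27rt among them, had 7 higher and 2 lower with a median log2 fold change of 0.05, and 0 were called. Fau, a fusion of a ubiquitin-like protein with a small subunit protein, had 338, 332 and 272 in Control and 347, 332 and 321 in GSK503 (0.09, limma adjusted p = 0.731), and Rpl36al had a fold change of 0.12 (adjusted p = 0.705). Mitochondrial ribosomal proteins, which build the separate ribosome of mitochondria, had 54 of 79 higher and 25 lower with a median of 0.09. The 79 include the pseudogene row Mrpl23-ps1, counted as higher (0.31) at signals of only 1.76 to 4.26. None was called at 0.05, 1 was called at 0.1 (1.97% of all rows), and 9 had an unadjusted p below 0.05, all higher, where 7.06% of all rows had one in that direction. In 15 of the 79 every GSK503 mouse exceeded every Control mouse (9.84% of all rows), and in 1 the reverse held (9.22%). Mrpl12, which binds the mitochondrial RNA polymerase, had 110, 126 and 124 in Control and 179, 163 and 142 in GSK503 (0.42, SE 0.10, limma adjusted p = 0.0922), and Mrps26 had 33.6, 32.8 and 30.7 against 44.3, 39.9 and 36.7 (0.31, adjusted p = 0.181).

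Translation factors had 20 of 36 genes higher with a median of 0.02 and 0 called. Eif3b, a scaffold of the initiation factor eIF3, had 160, 162 and 193 in Control and 211, 204 and 189 in GSK503 (log2 fold change 0.23, limma adjusted p = 0.306). Pabpc1, the poly(A)-binding protein and itself a TOP mRNA, had 502, 489 and 673 in Control and 504, 386 and 390 in GSK503 (-0.37, adjusted p = 0.308). Control 3 was thus the highest mouse for Pabpc1 where it was the lowest for the ribosomal proteins. Ribosome assembly factors had 23 of 35 higher, a median of 0.05 and 0 called. Ncl, the nucleolar protein nucleolin, was lower in every GSK503 mouse (117, 96.1 and 118 in Control, 91.9, 77.04 and 77.7 in GSK503; -0.42, SE 0.10, limma adjusted p = 0.112). Eif6, which keeps the large subunit from joining early, was higher in every GSK503 mouse (142, 145 and 131 against 177, 171 and 154; 0.26, adjusted p = 0.186). Of the 35 assembly genes, 3 were higher and 2 lower without overlap, against 9.84% and 9.22% of all rows.

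RNA polymerase I genes, which make the rRNA precursor, had 7 of 11 higher with a median of 0.06 and 0 called. Rrn3, an initiation factor of that enzyme, had a log2 fold change of 0.19 and Taf1b of -0.37 (limma adjusted p = 0.351 and 0.39). Regulators of ribosomal protein synthesis had 8 of 17 higher, a median of -0.0016 and 0 called. Eif4ebp1, the mTOR target that blocks cap-dependent initiation, had 9.67, 8.59 and 10.2 in Control and 14.7, 12.6 and 10.6 in GSK503 (0.40, adjusted p = 0.288). Tsc1, an inhibitor of mTOR, had 41.2, 39.0 and 37.8 against 33.3, 35.3 and 33.9 (-0.20, adjusted p = 0.308). Genes of the p53 response, which failing ribosome assembly can trigger, had 7 of 13 higher, a median of 0.05 and 0 called. Mdm2 had 43.7, 41.0 and 40.4 in Control and 48.8, 47.2 and 50.3 in GSK503 (0.23, adjusted p = 0.232), and Ccng1 had a fold change of 0.16 (adjusted p = 0.351). Both were higher without overlap, while Mdm4 was lower without overlap (-0.23, adjusted p = 0.432). Of the 13 genes, 2 were thus higher and 1 lower without overlap, against 9.84% and 9.22% of all rows. The 8 noncoding hosts of small nucleolar RNAs, many of them TOP transcripts, had 1 higher and 7 lower with a median of -0.09 and 0 called. Of the 8, 3 (Snhg5, Snhg12 and Zfas1) were lower without overlap and 0 higher, against 9.22% and 9.84% of all rows. Zfas1 had 24.98, 25.8 and 21.9 in Control and 20.7, 19.3 and 19.9 in GSK503 (-0.27, adjusted p = 0.274), and Snhg12 had a fold change of -0.16 (adjusted p = 0.529). All these adjusted values come from the limma fit over all rows.

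**Figure D5:**
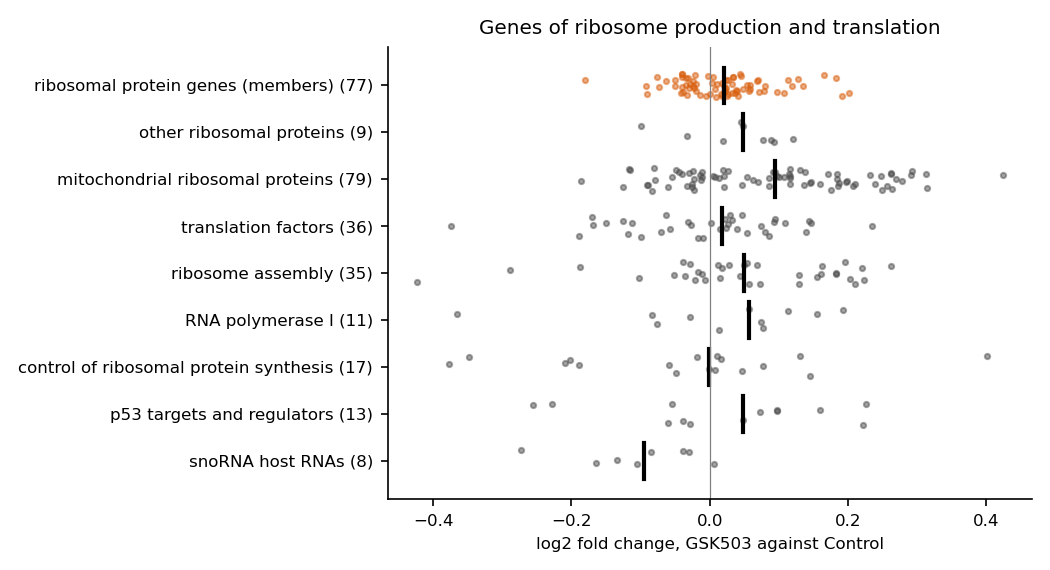
Log2 fold change of GSK503 against Control (x axis) for single genes (points) of each list, with the number of genes in brackets and a black bar at the median. The 77 ribosomal protein genes lie between -0.18 and 0.20 around a median of 0.02, mitochondrial ribosomal proteins have the highest median (0.09) and small nucleolar RNA hosts the lowest (-0.09).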

How the data were processed

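The 6 libraries (paired-end reads of 76 bases from stranded total RNA) were aligned by the authors to GRCm39 with STAR and counted with RSEM. The deposited signal values are estimated counts scaled to CPM with TMM library sizes. Between 75.3% and 78.4% of values were whole multiples of the worth of 1 count (tolerance 0.02 counts), so the table was not treated as counts and a log-scale test took the place of the count test of the study. The annotation behind the counting is not given in the sources used here.

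Columns were assigned to 3 Control and 3 GSK503 mice by the labels, and all columns belonged to these samples. Rows with at least 0.1 in 3 mice were fitted on log2(signal + 0.1) with limma 3.58.1 (trended variance, R 4.3.3), with Benjamini-Hochberg adjustment over all rows. The pseudocount slightly shrinks fold changes of low rows. Sums and ratios were compared by exact two-sided permutation tests. The labels number the samples as replicates; each was taken as 1 mouse, which they do not state, and p-values measure only the spread between these samples. No pair of libraries was identical (Pearson r of log2 values 0.976 to 0.990). Gene coordinates, coding lengths and GC came from GENCODE vM39, which held all 80 members and 95.8% of symbols. At these depths 3 counts correspond to a signal of at most 0.0271, and this floor covers counting error only.

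Alternatives changed the scaling, filter, pseudocount, variance model, rows tested, pairing and mice. Addition of pseudogene rows was chosen after seeing the data. The procedures were tested on simulated data. Members and lists were chosen with earlier results of these data known. Named genes were the members called at 0.1, the 6 with the most positive and the 6 with the most negative fold changes, the 3 highest and 3 lowest by signal, X-linked members and members with a role stated in the text, plus the 2 genes of smallest p in each related list. Rps10 and the genes of the centred, pseudogene and start sequence results were named after their values were seen. The tissue-restricted Rpl3l, Rpl10l and Rpl39l were not analysed here. Values of some single genes that the rule names are not reported here.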

Additional observations from a re-analysis of the deposited data

How the results depend on the processing

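None of the 20 alternatives called a ribosomal protein gene at an adjusted p of 0.05. The limits are the 3 mice per group, the difference in sex between the groups and the weight of Control 3. Of 1308 alternative values over 72 results, 1239 kept their direction and side of the threshold, 54 reversed, 13 moved, 2 passed the threshold and 0 lost it. The cause was not tested except where the alternative's construction shows it.

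With library size alone, the median of all rows moved to -0.12, and the list medians were -0.020 (mitochondrial ribosomal proteins), -0.096 (translation factors), -0.064 (ribosome assembly, with 2 called), -0.057 (RNA polymerase I), -0.12 (control of synthesis), -0.063 (p53 genes) and -0.21 (small nucleolar RNA hosts). The summed signal differed by -0.094 on the log2 scale, and Ncl was called (-0.54, limma adjusted p = 0.0427). The log2 fold changes of Rplp0 (-0.090), Rpsa (-0.066), Rplp2 (-0.093), Rpl11 (-0.080), Rpl13a (-0.10), Rpl38 (-0.094) and Fau (-0.022) reversed. Without genes above 1% of a library the summed signal differed by -0.0044, and Rplp0 (-0.00059), Rplp2 (-0.0037), Rpl13a (-0.014) and Rpl38 (-0.0041) reversed. Centring on the members reversed Rplp2 (-0.0022), Rpl13a (-0.013) and Rpl38 (-0.0026). A pseudocount of 1 gave Rps4l 0.051, and added pseudogene rows gave Rpl27 -0.093.

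Leaving out each mouse in turn moved the summed signal difference between -0.085 (without Control 3) and 0.073 (without Control 1), the RNA polymerase I median between -0.0072 and 0.096, the p53 median between -0.029 and 0.081, and the count of mitochondrial ribosomal proteins called between 0 and 1 (Mrpl12 without GSK503 3, 0.51, limma adjusted p = 0.0385). The log2 ratio differences ranged from -0.66 to 0.71 (Rps4l to Rps4x), -0.14 to 0.041 (Rpl22l1 to Rpl22) and -0.036 to 0.19 (Rpl7l1 to Rpl7). The log2 fold changes that changed sign ranged from -0.018 to 0.30 (Rpl36), -0.34 to 0.070 (Rpl6l), -0.20 to 0.00094 (Rps4x), -0.10 to 0.034 (Rpl4), -0.031 to 0.054 (Rplp0), -0.0037 to 0.086 (Rpsa), -0.77 to 0.63 (Rps4l), -0.13 to 0.035 (Rpl10), -0.18 to 0.030 (Rpl36a), -0.17 to 0.064 (Rpl39), -0.12 to 0.11 (Rplp2), -0.16 to 0.039 (Rps6), -0.054 to 0.091 (Rpl11), -0.16 to 0.021 (Rpl22), -0.13 to 0.083 (Rpl13a), -0.085 to 0.074 (Rpl38), -0.0022 to 0.21 (Rps27l) and -0.0081 to 0.15 (Fau).

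Mice of the same replicate number did not deviate together (Pearson r of 0.03, -0.13 and -0.12 between the deviations of same-numbered mice). For mice of different number r ran from -0.17 to 0.22. These correlations cannot exclude a pairing, and the number was not used as one in the main fit. With the replicate block, 0 members and 33 rows in all were called by limma, against 107 without it, and the median of the members was 0.02 in both. Over all rows the calls numbered 16 with no intensity trend, 261 with library size alone, and 29 (without GSK503 2) to 216 (without GSK503 3) when 1 mouse was left out.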
